A study of Drosophila melanogaster with 6 samples.

Results

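Rab GTPases, their effectors and regulators, the endosomal sorting complexes required for transport (ESCRT), the retromer and a pair of endocytic genes, cindr and Ack, were followed in fly heads as 49 genes chosen by name for their roles in membrane traffic. All 49 were matched to FlyBase identifiers among the 17509 listed in the counts. They comprised 26 Rab GTPases, 6 genes classed as Rab effectors and regulators, 12 ESCRT genes, 3 retromer genes, and cindr and Ack. The list was drawn up with earlier results of these libraries known, so the share of it that passed a test is a description of the list and not independent evidence about the pathway. The libraries hold total RNA from whole heads of 4-day-old female wild-type Canton S flies of Drosophila melanogaster, raised at 25 °C and 50% relative humidity on minimal food. In 3 libraries the food lacked beta-carotene (vitamin A deprived), and in 3 it contained beta-carotene (vitamin A replete). The comparison asks which head transcripts differ without dietary vitamin A. The labels do not say whether heads were pooled or whether each library came from its own culture of flies, and the p-values therefore measure only how much these libraries vary, which may be technical.

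Rab proteins are small GTPases that switch between an inactive form, held in the cytosol by Gdi, and an active form on membranes, where they recruit motors and tethers. In fly photoreceptors, newly made rhodopsin is carried from the Golgi to the rhabdomere by Rab11 with its effector Rip11 and the myosin V motor encoded by didum. Rhodopsin and the light-activated channel TRPL leave the rhabdomere by endocytosis. Rhodopsin passes through Rab5-positive early and Rab7-positive late endosomes, and is degraded after ESCRT sorting or returned by the retromer. Fly visual pigments need a chromophore made from dietary carotenoids, and rhodopsin without chromophore does not mature.

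Total counts were 21344395 to 24165187 in deprived and 15668307 to 17935321 in replete libraries. CPM is the library-size-scaled count per 1e+06 counts. By these total counts, 3 counts equalled 0.124 to 0.191 CPM, a floor that covers counting error only. The CPM of genes use TMM-scaled library sizes instead, so the floor is approximate on their scale. The members took 0.339% to 0.358% of the counts in deprived and 0.328% to 0.358% in replete libraries. Among markers fixed for the tissue, the 5 photoreceptor markers were abundant and summed to 15690 to 17825 CPM in deprived and 15304 to 16781 CPM in replete heads. That sum is mostly ninaE (log2 fold change 0.10). Beneath it, trp (0.05) and chp (0.11) had positive log2 fold changes. By contrast, norpA was lower in every deprived library (log2 fold change -0.23) and inaD had a log2 fold change of -0.37. None of these 5 markers passed the threshold. Lsp2, 1 of 5 fat body markers, was called higher, at 1083 ± 152 CPM in deprived heads and 641 ± 97.1 CPM in replete heads (SD, n = 3 each; 1.69-fold, edgeR quasi-likelihood, BH-adjusted p = 0.0373), while the fat body sum overlapped at 113739 to 141456 CPM in deprived and 114463 to 133352 CPM in replete heads. All 4 neuron markers had positive and all 4 muscle markers negative log2 fold changes, and 0 of these 8 passed. The glia and haemocyte lists each had 1 of 4 markers with a positive log2 fold change, and none was called. Some markers were scarce, such as Act88F of muscle at a mean of 1.9 CPM and He of haemocytes at 0.637 CPM over all libraries. In these bulk heads, fewer cells of a type and less RNA per cell cannot be told apart. Transcripts of ovary, which is not part of a head, differed between libraries, and the 5 oocyte and ovary markers summed to 14.9 to 50.6 CPM in deprived and 0.492 to 94.9 CPM in replete heads. Replete library 2 held the most eggshell transcript, at 15.1 CPM over 5 genes against at most 0.62 CPM in any other library. The clock gene per was at 121 to 131 CPM in deprived heads and 35.1 to 91.2 in replete heads, without overlap. The other clock genes tim, vri, Clk and cry overlapped between the diets, with tim at 338 to 550 CPM in deprived heads and 87.7 to 455 in replete heads. A fit with clock genes as a covariate is given beside the results it touches. The running numbers in the library codes form a separate block for each diet, and whatever these numbers follow cannot be told apart from diet.

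Deprived heads had more transcript of Hrs, cindr and Ack than replete heads, by 1.49-fold to 1.59-fold, while no other member passed the test. Hrs encodes the ubiquitin-binding ESCRT-0 subunit that gathers cargo on early endosomes. cindr encodes the fly member of the CIN85 and CD2AP adaptor family, whose SH3 domains link receptors to endocytic and actin proteins, and Ack encodes a non-receptor tyrosine kinase of the activated Cdc42 kinase family. In the edgeR quasi-likelihood test, 3 of the 49 members (6.12%) passed at an adjusted p under 0.05 (Benjamini-Hochberg, BH), all higher, against 0.33% of the 10896 genes tested in either direction and 0.294% called higher. DESeq2 and limma-voom each called the same 3 members, where they called 0.78% and 0.303% of all genes. As the list was drawn up with earlier results of these libraries known, these shares describe the list only.

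Hrs (FBgn0031450, chromosome 2L, 2739986 to 2743377 in assembly BDGP6.54) had 2184, 1953 and 2423 counts in deprived and 1018, 964 and 1026 counts in replete libraries. Scaled for library size, these were 95.5, 89.2 and 101 CPM in deprived heads and 63.1, 54.4 and 63.1 in replete heads. The lowest deprived library stood above the highest replete library by more than the range within either diet. Hrs rose 1.58-fold, with a mean of 95.3 ± 6.0 CPM in deprived heads and 60.2 ± 5.03 in replete heads (SD, n = 3 each) and a 95% interval of 1.36-fold to 1.84-fold (edgeR quasi-likelihood, BH-adjusted p = 0.0131).

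Ack (FBgn0028484, chromosome 3L, 4108186 to 4114157) was at 113, 112 and 123 CPM in deprived heads and 69.2, 75.3 and 74.5 in replete heads. Again the diets did not overlap, and the gap between them exceeded the range within each. The gene rose 1.59-fold (95% interval 1.39 to 1.83), with counts of 2592, 2461 and 2952 in deprived and 1116, 1334 and 1211 in replete libraries (edgeR quasi-likelihood, BH-adjusted p = 0.00436). Its group means were 116 ± 6.04 CPM in deprived heads and 73.0 ± 3.32 in replete heads (SD, n = 3 each).

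cindr (FBgn0027598, chromosome 3R, 30808617 to 30827005) was at 193, 187 and 211 CPM in deprived heads and 133, 128 and 137 in replete heads. Deprived library 3 was the highest and the replete libraries lay within a narrow band. The gene rose 1.49-fold (95% interval 1.3 to 1.69), with means of 197 ± 12.6 CPM in deprived heads and 132 ± 4.23 in replete heads (SD, n = 3 each; edgeR quasi-likelihood, BH-adjusted p = 0.0122). Among all tested genes ordered by p, Ack, cindr and Hrs held ranks 21, 22 and 23.

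**Figure D1:**
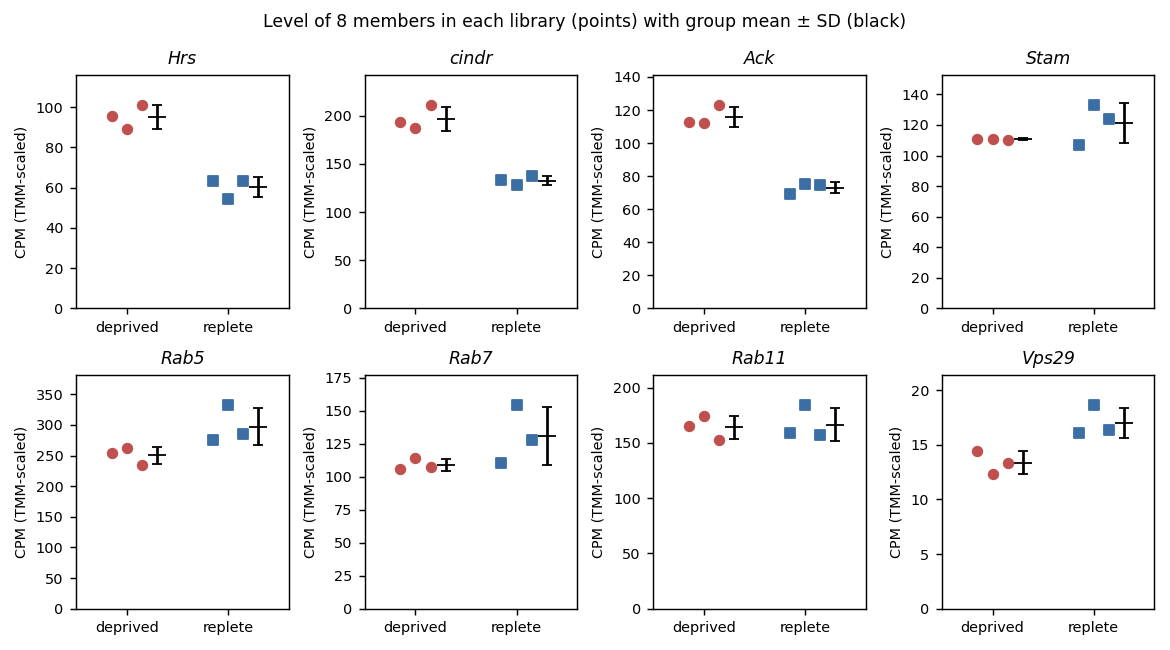
CPM of 8 members in each library (y axes start at 0), with deprived libraries as circles on the left, replete libraries as squares on the right and the group mean ± SD in black. Hrs, cindr and Ack separate by diet with every deprived point above every replete point, Stam, Rab7 and Rab11 overlap, and Rab5 and Vps29 lie lower in deprived heads by less.

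These calls rested on few libraries, 3 for each diet, and some were lost when 1 was left out. Without deprived library 3 none of the 3 genes was called, and without deprived library 1 or replete library 1 Ack alone was. Leaving out 1 library at a time gave log2 fold changes of 0.594 to 0.705 for Hrs and 0.519 to 0.605 for cindr. For Ack they ran from 0.629 to 0.695. With the clock genes as a covariate none was called (edgeR quasi-likelihood, BH-adjusted p = 0.263 for Hrs, 0.233 for cindr and 0.101 for Ack), where the log2 fold change of Hrs was 0.65 with a standard error of 0.15, against 0.66 with a standard error of 0.10 without the covariate. With the oocyte genes as a covariate all 3 genes remained called. The fat body marker Lsp2 was also higher in every deprived library, as were 5.86% of all tested genes. The other fat body markers Yp1, Yp2, Yp3 and apolpp had log2 fold changes of -0.06, -0.09, 0.08 and 0.13, and none was called. The part of fat body RNA in the difference of Hrs, cindr and Ack was not tested.

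**Figure D2:**
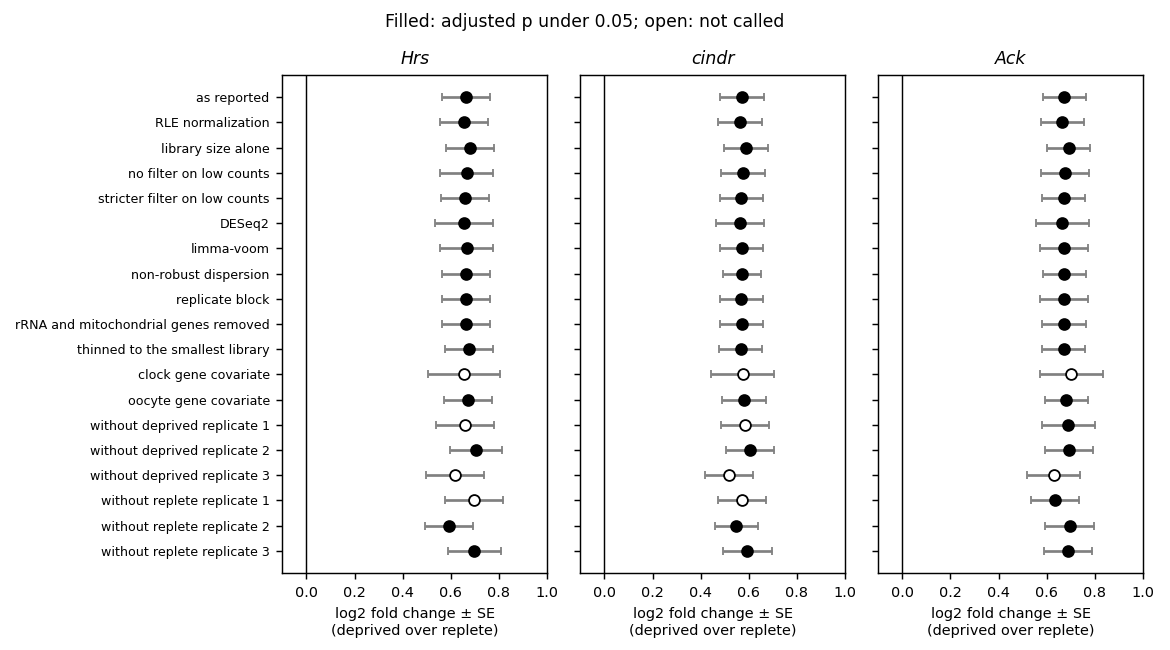
Log2 fold change, deprived over replete (x axes), of Hrs, cindr and Ack in the reported fit and 18 alternatives (y axis); bars are ± 1 standard error, filled points have an adjusted p under 0.05 and open points do not. All points lie between 0.519 and 0.705, and open points occur with the clock genes as a covariate and in some fits that leave out 1 library.

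Position and neighbouring genes were examined for the 3 called genes. They lie on chromosome arms 2L, 3R and 3L. No other annotated exon overlaps cindr or Ack, and 3 bases of Hrs overlap CG9961 on the opposite strand. Per length of exon their levels were 33.8 CPM per kb for Hrs, 42.2 for cindr and 26.5 for Ack in deprived heads and 21.4, 28.4 and 16.6 CPM per kb in replete heads.

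The ratio of Ack to Hrs counts did not separate the diets. Ack over Hrs was 1.19, 1.26 and 1.22 in deprived and 1.1, 1.38 and 1.18 in replete libraries, which overlap. cindr over Hrs was 2.02, 2.09 and 2.08 in deprived and 2.1, 2.36 and 2.16 in replete libraries, lower in every deprived library by a log2 difference of -0.09. Hrs and Stam encode the subunits of ESCRT-0. The ratio of Hrs to Stam counts was 0.864, 0.803 and 0.924 in deprived libraries and 0.587, 0.41 and 0.508 in replete libraries, without overlap. With 3 libraries against 3, the exact two-sided permutation test cannot go below p = 0.1, the value it gave for Hrs over Stam and for cindr over Hrs (BH-adjusted p = 0.15 each), against 0.9 for Ack over Hrs. These were among 6 ratios chosen after the values were seen. Of the others, Rab5 over Rab11 (log2 difference -0.22) and Vps29 over Vps35 (-0.43) were lower in every deprived library, at the same exact permutation p = 0.1, and Rip11 over Rab11 overlapped (exact permutation p = 0.3).

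Of the 12 ESCRT genes, Hrs was the 1 that passed. Stam, the partner that also binds ubiquitin, was at 2529, 2431 and 2622 counts in deprived and 1733, 2353 and 2018 counts in replete libraries, or 110 ± 0.787 CPM in deprived heads and 122 ± 12.9 CPM in replete heads (SD, n = 3 each), which overlap. Its log2 fold change was -0.14 with a 95% interval of -0.35 to 0.07 (edgeR quasi-likelihood, BH-adjusted p = 0.999), so an increase of the size seen in Hrs lies outside the interval. Of ESCRT-I, which takes over cargo from ESCRT-0, TSG101 was at 52.2 ± 1.83 CPM in deprived heads and 54.9 ± 4.35 in replete heads and Vps28 at 9.54 ± 1.4 CPM in deprived heads and 9.2 ± 2.17 in replete heads (SD, n = 3 each).

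ESCRT-II, which links ESCRT-I to the filaments that cut vesicles free, comprises Vps25, Vps36 and lsn. Vps25 had the most negative fold change of all 49 members, at 169, 94 and 120 counts in deprived and 119, 204 and 97 counts in replete libraries. Those groups overlapped, replete library 2 was highest at 11.5 CPM against at most 7.39 CPM in the others, and the log2 fold change of -0.58 had a standard error of 0.30. Vps36 was at 6.32 ± 0.12 CPM in deprived heads and 5.54 ± 1.71 in replete heads and lsn, the fly Vps22, at 6.92 ± 0.417 CPM in deprived heads and 6.79 ± 0.259 in replete heads (SD, n = 3 each).

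Per kb of exon, shrb was the most abundant ESCRT gene. It encodes the main filament subunit of ESCRT-III and stood at 53.1 CPM per kb in deprived heads and 52.8 in replete heads. In single libraries shrb was at 71.1, 67.6 and 62.9 CPM in deprived heads and 64.3, 70.0 and 66.4 in replete heads, and the groups overlapped fully. Vps4, the ATPase that takes the filaments apart, was at 61.3, 56.8 and 58.2 CPM in deprived heads and 60.7, 65.7 and 54.6 in replete heads. The filament genes Vps2, Vps20 and Vps24 had log2 fold changes of 0.03, -0.06 and 0.12, each with a 95% interval that spans 0. Vps24 was lowest in the class at 1.79 CPM per kb in deprived and 1.64 CPM per kb in replete heads. Its libraries overlapped at 6.74, 4.89 and 6.23 CPM in deprived heads and 5.89, 5.59 and 4.92 in replete heads, and its value is uncertain because 68.1% of its exonic bases overlap the opposite-strand genes MP1 and asRNA:CR46140. The 11 ESCRT genes other than Hrs had a median log2 fold change of 0.01, beside -0.01 over all tested genes.

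None of the 26 Rab GTPases passed in edgeR, DESeq2 or limma-voom. At an unadjusted p under 0.05 in edgeR, 0 of the Rabs were higher and 2 lower (7.69%). Over all 49 members 3 were higher, namely Hrs, cindr and Ack, and 3 lower (6.12% each). Of all tested genes, 2.72% were higher and 2.41% lower. The Rab log2 fold changes ran from -0.31 to 0.31 with a median of -0.03, and 16 of the 26 were negative (61.5%), beside 52.0% of all tested genes. That median turned to 0.05 without replete library 2. This library, the one with the most eggshell transcript, held the highest value of the 6 for 13 of the 26 Rabs (50.0%), beside 23.1% of all tested genes. It held the lowest value for 2 Rabs (7.69%), beside 24.4% of all tested genes. Replete library 1, with a larger oocyte marker sum (94.9 against 46.4 CPM), was highest for 4 Rabs (15.4%), beside 15.5% of all tested genes. The part of ovary RNA in the Rab levels of replete library 2 was not tested. Summed over the class, Rab transcripts came to 1704, 1748 and 1618 CPM in deprived and 1698, 1974 and 1712 CPM in replete libraries.

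**Figure D3:**
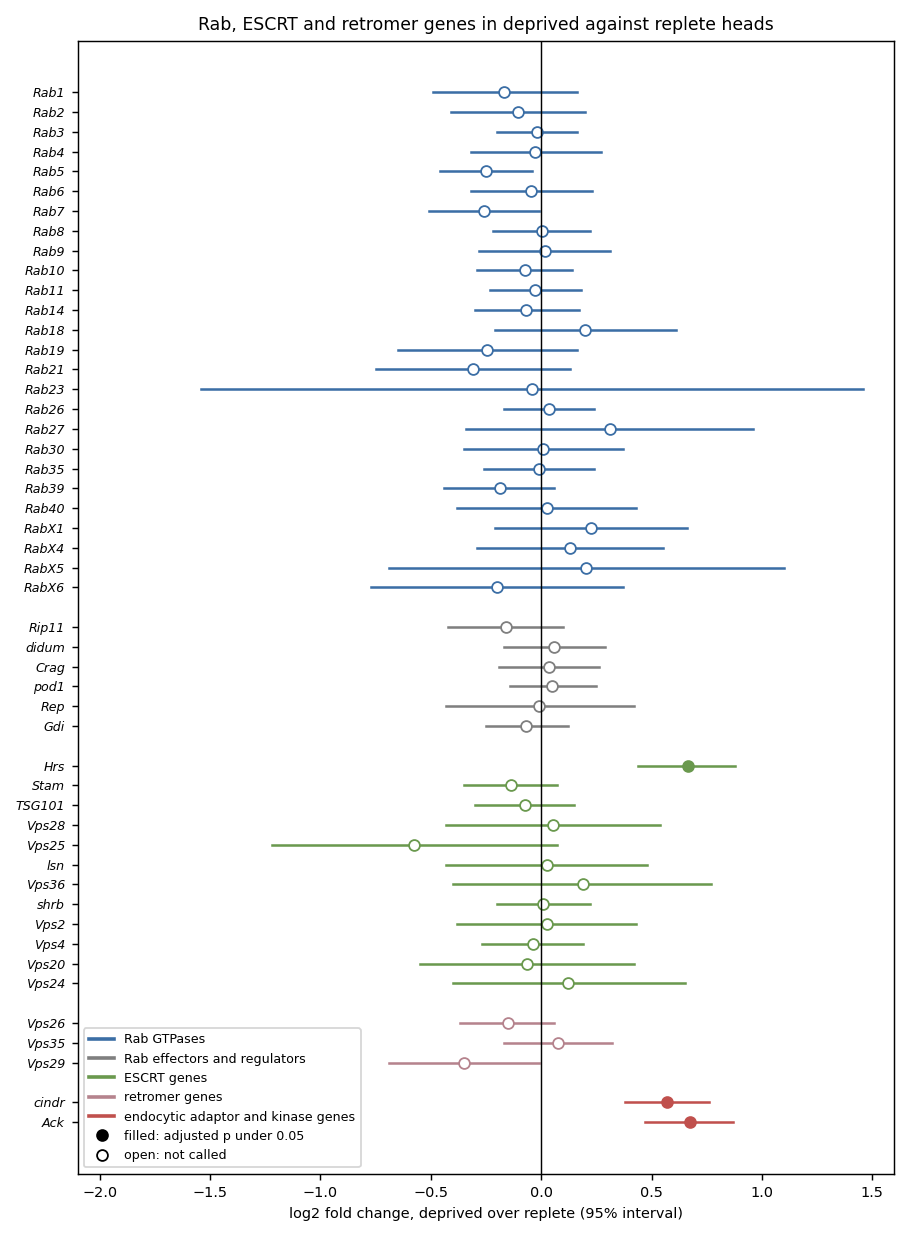
Log2 fold change, deprived over replete, of the 49 members with 95% intervals (x axis), grouped by class down the page; filled points have an adjusted p under 0.05. Hrs, cindr and Ack lie between 0.57 and 0.67 with intervals clear of 0, most Rab intervals span 0, and Rab23, RabX5, Rab27 and Vps25 have the widest intervals.

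Rab5, which governs the fusion of endocytic vesicles into early endosomes, had the smallest p of the class. It was at 255, 262 and 235 CPM in deprived heads and 275, 332 and 285 in replete heads. Every deprived library lay below every replete one, yet by less than the range within the replete group. Its log2 fold change of -0.25 (95% interval -0.46 to -0.04) missed the threshold (edgeR quasi-likelihood, BH-adjusted p = 0.863), and without replete library 2 it was -0.16.

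Rab7, which acts from late endosomes to lysosomes, was at 106, 114 and 107 CPM in deprived heads and 110, 154 and 128 in replete heads. The groups overlapped, and replete library 2 was the highest here too. A log2 fold change of -0.26 (95% interval -0.51 to -0.01) did not pass (edgeR quasi-likelihood, BH-adjusted p = 0.968) and was -0.13 without replete library 2. Rab11, the recycling endosome Rab that carries rhodopsin outward, was at 165, 174 and 153 CPM in deprived heads and 159, 184 and 157 in replete heads. For Rab11 the 95% interval of the fold change was 0.851 to 1.13, and its ranges overlapped.

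The groups of 8 members did not overlap. Hrs, cindr and Ack were higher in every deprived library (6.12% of members, beside 5.86% of all tested genes), and Rab5, Rab19, Rab21, Rab39 and Vps29 were lower in every deprived library (10.2% of members, beside 5.02% of all genes). Rab19 was at 10.6, 8.68 and 10.1 CPM in deprived heads and 10.9, 13.1 and 10.8 in replete heads. Rab21, which takes part in endocytosis and autophagy, was at 7.43, 10.2 and 10.3 CPM in deprived heads and 12.9, 10.6 and 11.2 in replete heads. In both genes the nearest libraries of the diets differed by less than the range within a diet. Rab39 was at 37.4, 33.7 and 32.7 CPM in deprived heads and 41.1, 38.4 and 38.8 in replete heads, a log2 fold change of -0.19 that did not pass (edgeR quasi-likelihood, BH-adjusted p = 0.999).

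Levels differed far more between Rabs than between diets. Per kb of exon and averaged over all libraries, Rab11 was the most abundant, at 90.3 CPM per kb in deprived and 92.0 in replete heads. Rab5 followed at 79.7 CPM per kb in deprived heads and 94.7 in replete heads, where it stood above Rab11. Rab3, the synaptic vesicle Rab, came next at 79.4 CPM per kb in deprived and 80.3 in replete heads. After these stood Rab7 and Rab2, with Rab1 sixth; Rab1 and Rab2 act between endoplasmic reticulum and Golgi. In single libraries Rab3 was at 301, 308 and 285 CPM in deprived and 303, 292 and 311 in replete heads, and these ranges overlapped in part.

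Golgi and exocytic Rabs also overlapped between diets. Rab6, which acts at the Golgi and is needed for rhodopsin transport in flies, was at 44.9 ± 3.85 CPM in deprived heads and 46.2 ± 6.27 in replete heads, Rab8 at 80.4 ± 3.86 CPM in deprived heads and 80.2 ± 7.23 in replete heads, and Rab10 at 99.8 ± 8.17 CPM in deprived heads and 105 ± 7.86 in replete heads (SD, n = 3 each). Rab1 was at 87.3, 73.9 and 74.7 CPM in deprived heads and 72.7, 111 and 81.5 in replete heads, with 41.1% of its exonic bases under the antisense gene asRNA:CR45798. Among recycling Rabs, Rab4 was at 47.0 ± 0.826 CPM in deprived heads and 47.9 ± 9.41 in replete heads, and Rab35 at 85.9 ± 5.46 CPM in deprived heads and 86.5 ± 12.4 in replete heads (SD, n = 3 each). The log2 fold changes of Rab2, Rab9, Rab14, Rab26, Rab30, Rab40 and RabX4 ran from -0.10 for Rab2 to 0.13 for RabX4.

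The least abundant Rabs gave the least precise values. RabX5 had 64, 42 and 41 counts in deprived and 26, 44 and 24 counts in replete libraries, and a 95% interval of 0.618-fold to 2.14-fold. Rab23, a Rab of planar polarity in flies, had 101, 153 and 78 counts in deprived and 166, 48 and 34 counts in replete libraries. It was highest in replete library 1 at 10.3 CPM and deprived library 2 at 6.99 CPM, where the oocyte markers summed to 94.9 and 50.6 CPM. In replete library 2, at a nearly equal oocyte sum of 46.4 CPM, Rab23 was at only 2.71 CPM, and the part of ovary RNA in its level was not tested. The most positive Rab fold change was that of Rab27, an exocytic Rab, at 6.6, 4.3 and 5.93 CPM in deprived heads and 6.02, 3.27 and 4.31 in replete heads, which overlap. Rab18, RabX1 and RabX6 had log2 fold changes of 0.20, 0.23 and -0.20, and for RabX6 36.2% of exonic bases overlap the opposite-strand gene Vti1a.

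**Figure D4:**
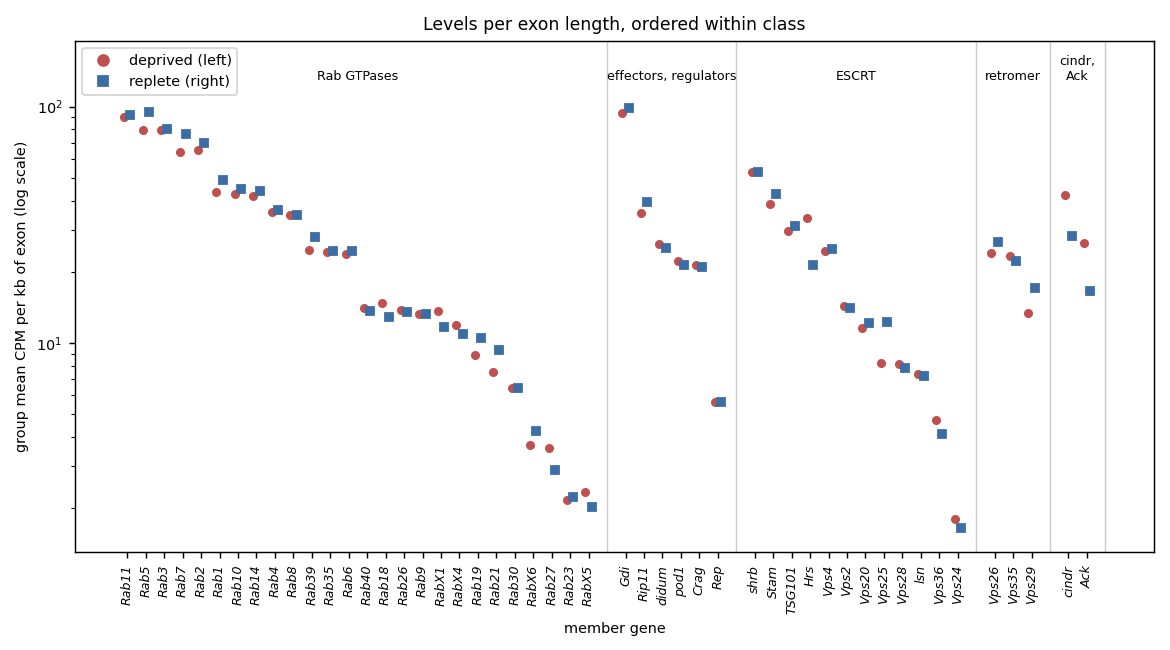
Group mean level of each member in CPM per kb of exon (y axis, log scale), deprived as circles on the left and replete as squares on the right, ordered by level within each class along the x axis. Levels in the Rab class span from above 90 CPM per kb for Rab11 to near 2 for RabX5, a wider range than any difference between the diets, and Hrs, cindr and Ack show the circle clearly above the square.

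The 6 genes classed as effectors and regulators of Rabs all overlapped between diets. Of these, 0 passed in edgeR, DESeq2 or limma-voom and 0 had an unadjusted p under 0.05 in edgeR. Rip11, the Rab11 effector of rhodopsin delivery, was at 134, 140 and 140 CPM in deprived heads and 135, 188 and 139 in replete heads, so replete library 2 alone stood apart. Its log2 fold change was -0.16 and turned to 0.01 without that library. didum was at 157, 174 and 180 CPM in deprived heads and 175, 141 and 176 in replete heads, and here replete library 2 was the lowest. Crag, an exchange factor that activates Rab11 in photoreceptors, was at 145, 146 and 160 CPM in deprived heads and 141, 130 and 168 in replete heads.

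Rab cycling factors differed most in level within this class. Gdi, which draws inactive Rabs off membranes, was at 245, 225 and 235 CPM in deprived heads and 248, 233 and 258 in replete heads, and was the most abundant of the 49 members at 94.0 CPM per kb in deprived and 98.5 CPM per kb in replete heads. Rep, the escort protein that presents new Rabs for prenylation, was the least abundant of its class at 5.59 CPM per kb in deprived and 5.61 CPM per kb in replete heads, and its libraries overlapped at 10.3, 12.7 and 9.15 CPM in deprived heads and 11.7, 11.2 and 9.54 in replete heads. pod1, which encodes a coronin-family protein that binds actin and microtubules, was at 148 ± 8.84 CPM in deprived heads and 143 ± 9.54 in replete heads (SD, n = 3 each). For every gene of this class, Rip11 and Rep included, the 95% interval lay within 1.5-fold in either direction.

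The retromer returns rhodopsin and other cargo from endosomes, and its core transcripts did not pass the test. Vps29 was at 14.4, 12.3 and 13.3 CPM in deprived heads and 16.1, 18.6 and 16.3 in replete heads, lower in every deprived library, with a log2 fold change of -0.35 that missed the threshold (edgeR quasi-likelihood, BH-adjusted p = 0.968). Exons of capt on the opposite strand cover 8.7% of Vps29. Vps26 was at 60.2, 62.5 and 61.3 CPM in deprived heads and 62.5, 73.9 and 68.0 in replete heads, which meet near 62.5. Vps35, the scaffold subunit, was at 78.9, 82.0 and 75.0 CPM in deprived heads and 77.3, 63.1 and 83.3 in replete heads, with a log2 fold change of 0.08 (95% interval -0.17 to 0.32).

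Of the 46 members that were not called, 34 had a 95% interval within 1.5-fold in both directions. For Rab23, RabX5 and Vps25 the interval reached a 2-fold difference, so a change of that size lies within what these libraries allow. All 49 members passed the filter on low counts. Their median log2 fold change was -0.01, the same as over all tested genes, and 42 of 49 lay within 1.2-fold, beside 7881 of 10896 genes; the median standard error of the log2 fold change was 0.13 for members and 0.19 for all tested genes.

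Other genes of these routes, 91 in a list written down by known role, were read in the same fit. Of these, 90 were matched, 89 were tested and 0 passed in edgeR or limma-voom, while DESeq2 called 1 lower. In edgeR 2 were higher and 2 lower at an unadjusted p under 0.05 (2.25% each), beside 2.72% higher and 2.41% lower of all tested genes. The diets did not overlap for 7 that were higher (7.87%) and 3 that were lower (3.37%), beside 5.86% and 5.02% of all tested genes. Their median log2 fold change was 0.01. The gene DESeq2 called was lqf, the fly epsin, an adaptor that brings ubiquitinated cargo into clathrin-coated pits. lqf was at 233, 249 and 258 CPM in deprived heads and 319, 313 and 382 in replete heads, without overlap, and had a log2 fold change of -0.45 (edgeR quasi-likelihood, BH-adjusted p = 0.119).

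Among sorting nexins and the WASH complex, which serve retromer carriers, Snx27 was at 118, 117 and 116 CPM in deprived heads and 133, 136 and 139 in replete heads. The diets did not overlap, but its log2 fold change of -0.22 did not pass (edgeR quasi-likelihood, BH-adjusted p = 0.801). SWIP of the WASH complex was at 15.5 ± 2.86 CPM in deprived heads and 11.5 ± 1.73 in replete heads, and mtm, a phosphatase of endosomal phosphoinositides, at 21.7 ± 0.825 CPM in deprived heads and 17.1 ± 1.92 in replete heads (SD, n = 3 each). These were the 2 listed genes that were higher at an unadjusted p under 0.05.

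No gene of the remaining classes passed. In the 7 matched further ESCRT genes the log2 fold changes ran from -0.27 to 0.39, in the 9 genes of the HOPS and CORVET tethers of late and early endosomes from -0.23 to 0.16, and in the 12 genes of the GARP and exocyst tethers from -0.14 to 0.30. The 20 further Rab regulators and effectors ran from -0.24 to 0.22. Among the genes with the smallest p in these classes, lt of HOPS was at 58.3 ± 1.36 CPM in deprived heads and 52.2 ± 0.991 in replete heads, and Rab3GAP1 at 25.5 ± 0.87 CPM in deprived heads and 21.9 ± 1.6 in replete heads (SD, n = 3 each). Gga, a clathrin adaptor of the Golgi, was at 28.6 ± 1.73 CPM in deprived heads and 24.2 ± 1.11 in replete heads (SD, n = 3 each), and Vps15, the regulatory subunit of the endosomal lipid kinase, was 1.23-fold lower in deprived heads; neither passed. The lipid kinase gene fab1 was listed at 0 in all 6 libraries and was not tested; that 0 may reflect the annotation used for counting, which is not given, and is not a measure of its level.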

How the data were processed

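Each library has 1 deposited table of raw, whole-number counts per FlyBase gene. The tools listed in the submitters' processing notes are STAR 2.5.3a, Subread 1.6.2 with featureCounts, Trim Galore 0.4.2 and FastQC 0.11.5. Their order and settings, the genome build and the strand mode are not given, so reads of overlapping genes cannot be told apart. Positions and exon lengths come from Ensembl release 115, assembly BDGP6.54, matched by identifier (17389 of 17509). Members and lists were chosen with earlier results of these data known.

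Genes were filtered with filterByExpr (minimum count 10, minimum total 15) and diets compared by edgeR 4.0.16 in R 4.3.3 (TMM, robust quasi-likelihood test, BH over 10896 genes, tested on simulated data). Intervals use the standard error from the F statistic. Alternatives include DESeq2 1.42.0 and limma 3.58.1. CPM use TMM-scaled library sizes. Members were described in full if called, at p under 0.05 unadjusted, without overlap, extreme in level for their class or known for rhodopsin transport; further values were chosen after seeing them. Replicates differed by more than counting noise (chi-square per degree of freedom 18.1 to 43.4).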

Additional observations from a re-analysis of the deposited data

How the results depend on the processing

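The count of members called was 3 in 14 of 18 alternatives, with the same genes Hrs, cindr and Ack. It was 0 with the clock genes as a covariate, which partly follow diet, and 0 to 3 in fits that leave out 1 library, which hold fewer samples. With the replicate block it stayed 3; same-numbered libraries had deviations correlated at -0.106, 0.006 and 0.273, so the numbers were not taken as pairs. Of the other pathway genes, 1 (lqf, lower) was called with no filter on low counts and 1 (lqf) by DESeq2, against 0 in the reported fit; the cause was not tested. Hrs, cindr and Ack were higher in every alternative. Of the 18 other named members none was called in any alternative, and 10 changed sign in at least 1, then at log2 fold changes of at most 0.096 in size. Rep was at 0.01 with library size alone and 0.011 with thinned libraries, shrb at -0.001 with RLE factors and in DESeq2, and Vps24 at -0.005 with the clock covariate. In fits that leave out 1 library, log2 fold changes ran from -0.074 to 0.051 for Rab11, -0.037 to 0.47 for RabX5, -0.25 to 0.009 for Rip11, -0.043 to 0.11 for didum, -0.044 to 0.15 for Crag, -0.15 to 0.096 for Rep, -0.037 to 0.053 for shrb, -0.10 to 0.028 for Vps4 and -0.031 to 0.16 for Vps35. Low counts and the spread between libraries limit Rab23, RabX5, Rab27 and Vps25 most. Over all tested genes, 32 were called higher and 4 lower in the reported fit, 60 and 25 in DESeq2, 45 and 10 with no filter, 12 and 3 with the clock covariate, and 18 and 2 without deprived library 3.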
